A study of Mus musculus with 16 samples.

Results

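The glucocorticoid-responsive genes described here are 10 named rows of the count table, Nr3c1, Fkbp5, Tsc22d3, Sgk1, Ddit4, Klf9, Zbtb16, Errfi1, Cebpd, and Cdkn1a, of 24421 rows in all. They were chosen by name as the receptor for glucocorticoid hormones and genes that the receptor is known to induce. All 10 passed the filter on low counts, as did 14565 rows of the whole table. RNA was sequenced from CD11b+ brain cells, a fraction rich in microglia that magnetic beads hold back after the tissue is dissociated. All animals were C57BL/6J mice, given their diet from weaning for one month. CON mice (4 libraries) ate standard chow, MAL mice (5 libraries) an isocaloric diet low in fat and protein, and MAL-BG mice (7 libraries) that same low fat and protein diet with oral gavages of an E. coli/Bacteroidales mix. By the study's methods the mice were female, and the mice that got no bacteria received gavages of PBS. No group received the bacteria on standard chow, so a difference between MAL-BG and CON belongs to diet and bacteria together. The labels name cortical tissue and the methods whole cerebra. The number of a library is its number in the count table, which matches no sample title.

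Glucocorticoids (corticosterone in mice) are adrenal steroids that enter cells and bind a receptor held ready by Hsp90 and its partner proteins. The bound receptor moves to the nucleus, where it raises some genes from DNA response elements and holds back inflammatory genes that NF-kB and AP-1 drive. Microglia carry much of this receptor and little of the related mineralocorticoid receptor, and the hormone is known to restrain their inflammatory responses. The induced genes fall into feedback and effector proteins (Fkbp5, Tsc22d3, Sgk1), brakes on growth signalling and the cell cycle (Ddit4, Errfi1, Cdkn1a), and transcription factors (Klf9, Zbtb16, Cebpd). None of them answers to the hormone alone, as stress, p53, oxygen, and cytokines also move several of them.

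The sequences of 2 promoters are shown. That of Sgk1 holds the full response element that the receptor binds best, and that of Tsc22d3 only 1 hexamer of it. RefSeq promoters on GRCm38.p6 were listed for 7 of the 10 genes, at 16 starts, and Nr3c1, Zbtb16, and Cebpd had no entry. The full element searched on both strands was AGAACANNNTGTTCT, a palindrome of the hexamers AGAACA and TGTTCT, so a match to the element also counts as a match to each hexamer. Only Sgk1 among the 7 held the full element, 189 bases before a start inside the gene on chromosome 10, and 3 of all 32851 promoters of this length (0.00913%) held it. A hexamer stood in promoters of Sgk1 (including some not shown) and Tsc22d3, while 19% of all promoters held one. The 250 bases before that start of Sgk1 (chr10:21993640-21993889, plus strand) and before the outermost start of Tsc22d3 (chrX:140600523-140600772, minus strand) read as follows, with hexamers and the full element in capitals.
Sgk1: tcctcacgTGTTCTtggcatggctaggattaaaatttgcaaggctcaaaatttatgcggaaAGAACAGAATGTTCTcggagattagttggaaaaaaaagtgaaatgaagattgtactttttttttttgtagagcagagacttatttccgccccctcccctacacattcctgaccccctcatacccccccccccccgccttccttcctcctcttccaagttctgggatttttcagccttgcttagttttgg
Tsc22d3: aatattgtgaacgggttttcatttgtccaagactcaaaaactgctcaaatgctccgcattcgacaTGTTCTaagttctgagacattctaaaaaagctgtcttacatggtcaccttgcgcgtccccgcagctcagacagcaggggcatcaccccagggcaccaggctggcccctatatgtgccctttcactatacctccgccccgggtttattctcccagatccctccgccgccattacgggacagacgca
These letters describe the windows shown, and elements farther from a start were not searched.

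In MAL-BG, Sgk1 and Nr3c1 were higher than in CON (1.84-fold and 1.57-fold on the TMM scale, where libraries are set level by their typical genes), but with libraries scaled to their microglia marker genes both lay below CON and neither was called. Cdkn1a, Zbtb16, Ddit4, Klf9, and Errfi1 were lower, at 24.9%, 26.9%, 49.1%, 52.7%, and 59.9% of CON, and all 5 stayed lower under every scaling tried, though Klf9 and Errfi1 lost their call under scaling by the mean log2 CPM. So 2 of the 10 rose and 5 fell, by the quasi-likelihood test of edgeR with an adjusted p under 0.05 and a log2 fold change beyond 0.58, where 11.4% of all tested genes rose and 21.7% fell. With scaling to the microglia markers 0 were called higher and 8 lower, beside 0.281% and 76.6% of all genes. Against MAL, 4 of the 10 fell (Cdkn1a, Zbtb16, Ddit4, and Tsc22d3) and 0 rose, beside 20.2% and 10.2% of all genes (0 higher and 8 lower by microglia markers, beside 0.275% and 72.5%). The median log2 fold change of the 10 was -0.65 against CON and -0.56 against MAL, with -0.04 and -0.03 over all genes tested. None of the 10 was called in MAL versus CON.

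The libraries differed in the cells they held, which touches every comparison below. Over the 12 microglia markers, all of them detected and 7 called higher against either group, the summed level was 17780 to 28790 CPM (counts scaled to a common library total) in CON, 18391 to 31419 in MAL, and 38117 to 51596 in MAL-BG. The 12 choroid plexus markers went the other way, from 10915 to 42027 CPM in CON and 5095 to 33058 in MAL to 1489 to 13312 in MAL-BG, and 12 of 12 fell against CON. Sums of the 8 astrocyte markers were 277 to 610, 340 to 553, and 147 to 257 CPM in that order, and those of the 9 neuron markers 38.2 to 207, 65.3 to 168, and 15.3 to 62.1 CPM. Endothelium and oligodendrocyte markers did not fall. Sums of 12 endothelium markers were 844 to 2800, 741 to 2102, and 1706 to 4597 CPM (3 called higher against CON and 5 against MAL), and those of 9 oligodendrocyte markers 421 to 1075, 595 to 928, and 504 to 1224 CPM (3 and 4 called higher). Sums of 5 ependyma markers ran from 107 to 191, 41.0 to 180, and 21.9 to 73.2 CPM. Neutrophil markers (9 of 10 in the table) reached 13326 CPM in MAL-BG replicate 5, against 571 to 3255 CPM in the other MAL-BG libraries and 481 to 1216 CPM in the rest. Of these 9, 8 were called higher in MAL-BG, with a median log2 fold change of 4.39 against CON and 4.07 against MAL. The sums also hold Csf3r, at 361 to 1118 CPM in CON, 461 to 758 CPM in MAL, and 237 to 713 CPM in MAL-BG. No marker of these lists was at 0 in any group. In such bulk samples, fewer cells of a type and less RNA per cell cannot be told apart. Library totals were 10312703 to 13461574 counts in CON, 10864121 to 12819982 in MAL, and 14191791 to 18705202 in MAL-BG, and every pair of replicates differed by more than counting noise.

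Inside the groups, 2 libraries stood apart from the rest. CON replicate 1 and MAL replicate 4 had the highest sums of the 12 early response genes (Fos, Jun, and their kind, which rise within minutes of a stimulus), at 35959 and 42252 CPM, where the other CON and MAL libraries held 17809 to 28439. MAL-BG libraries held 8491 to 24060 CPM. The same pair had the lowest choroid plexus sums of their groups, at 10915 and 5095 CPM, and the highest microglia (28790 and 31419 CPM), border macrophage (563 and 706 CPM), and neutrophil sums (1216 and 1081 CPM). Neutrophil sums in CON and MAL were mostly Csf3r, so these 2 values do not by themselves show more neutrophils. They recur below because several of the 10 genes were at an extreme in them.

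**Figure D1:**
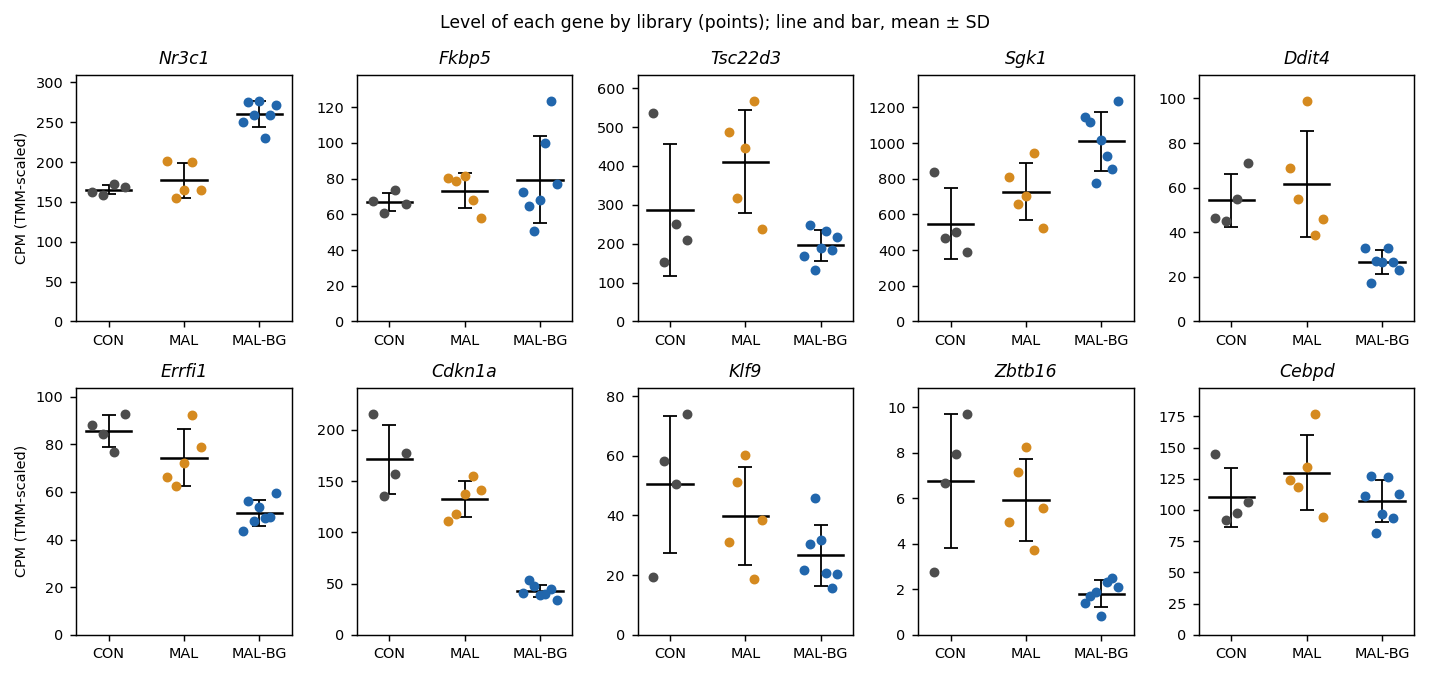
Level of each of the 10 genes in every library, in TMM-scaled CPM on linear axes from 0, with the mean and SD of each group (7 MAL-BG, 5 MAL, and 4 CON libraries). MAL-BG points lie apart from all others above for Nr3c1 and below for Ddit4, Errfi1, Cdkn1a, and Zbtb16. This separation was looked at on the TMM scale only, and the direction of Nr3c1 turns with scaling to microglia markers.

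Nr3c1 encodes the glucocorticoid receptor itself. Its level was 162, 159, 172, and 168 CPM in the 4 CON libraries and 201, 155, 165, 201, and 165 CPM in the 5 MAL libraries. The 7 MAL-BG libraries lay between 230 and 277 CPM with a median of 259. Every MAL-BG library was above every other library, which held for 6.17% of all genes tested. The difference was 0.65 ± 0.10 (log2, SE) against CON (95% confidence interval 0.45 to 0.86, adjusted p = 0.000109), and 0.55 ± 0.09 against MAL (adjusted p = 0.000206), just short of the fold threshold. Both turned negative under scaling to the microglia markers, at -0.41 (adjusted p = 0.0119) and -0.40 (adjusted p = 0.00986), where the median of all genes also moved to -1.08 and -0.99. The receptor transcript was thus higher relative to the typical gene and lower, short of the fold threshold, relative to the microglia markers. Its spread was the smallest of the 10 genes in CON, with an SD of 3.61% of the mean.

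Fkbp5 encodes the co-chaperone that lowers the receptor's affinity for hormone, a feedback that makes its transcript a common readout of receptor activity. The CON libraries held 67.4, 60.9, 73.7, and 65.8 CPM and the MAL libraries 80.3, 78.5, 81.7, 67.9, and 58.2 CPM. MAL-BG ranged from 50.7 to 124 CPM, with a median of 72.5. The groups overlapped fully, and MAL-BG held both the lowest and the highest library. Its difference was 0.25 ± 0.19 against CON (interval -0.15 to 0.64, adjusted p = 0.296) and 0.12 ± 0.17 against MAL (adjusted p = 0.606). Neither passed the test, the sign turned under scaling to the microglia markers (-0.79 and -0.86), and it was called higher with offsets for length and GC content combined with scaling by the mean log2 CPM (0.75 and 0.59), which alone gave 0.51 and 0.35 and no call.

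Tsc22d3 encodes GILZ, a leucine zipper protein that binds and restrains NF-kB and AP-1. It varied more than any other of the 10 in CON, with 536, 153, 250, and 210 CPM. The MAL libraries held 487, 318, 446, 567, and 238 CPM, and the MAL-BG libraries 133 to 249 CPM with a median of 189. The MAL-BG range overlapped both other groups and touched only the lowest of the 5 MAL libraries. Its log2 fold change against MAL was -1.07 ± 0.27, which passed (adjusted p = 0.00441), while against CON the value of -0.55 ± 0.29 missed the test (interval -1.16 to 0.05, adjusted p = 0.125). The value against CON rested on single libraries. It was -0.76 and passed without CON replicate 2, the lowest of its group (adjusted p = 0.0456), and only -0.06 without CON replicate 1, the highest (adjusted p = 0.851). By microglia markers it was -1.49 (adjusted p = 3.16e-05). The libraries highest in Tsc22d3 were MAL replicate 4 and CON replicate 1, which were also the highest of their groups in early response, microglia, and border macrophage markers, and the part of these in the result was not tested.

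Sgk1 encodes a kinase that keeps ion channels and transporters at the cell surface, and its promoter is the one with the full element shown above. The CON libraries held 839, 466, 501, and 389 CPM and the MAL libraries 808, 659, 703, 944, and 523 CPM. MAL-BG ran from 777 to 1236 CPM, with a median of 1018. CON replicate 1 and MAL replicates 1 and 4 reached into the MAL-BG range, and the other 6 CON and MAL libraries lay below it. On the TMM scale Sgk1 was higher than in CON by 0.88 ± 0.21 (interval 0.44 to 1.32, adjusted p = 0.00295), while scaling to the microglia markers gave -0.12 (adjusted p = 0.405). The TMM difference from MAL was 0.47 ± 0.19 and just missed the test (adjusted p = 0.0527); it passed without MAL replicate 4 (0.59, adjusted p = 0.0241) and was -0.48 by microglia markers.

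The ratio of Sgk1 to Tsc22d3 counts within a library is free of any scaling, though this pair was chosen after their values were seen and has no test. It was 1.57, 3.04, 2, and 1.85 in CON and 1.66, 2.07, 1.58, 1.66, and 2.2 in MAL. In MAL-BG it ran from 3.99 to 6.82, with a median of 5.38. Every MAL-BG library was above all others, and CON replicate 1 and MAL replicate 4, with high levels of both transcripts, had ratios like the rest of their groups. The share of other gene pairs that separate in this way was not counted.

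**Figure D2:**
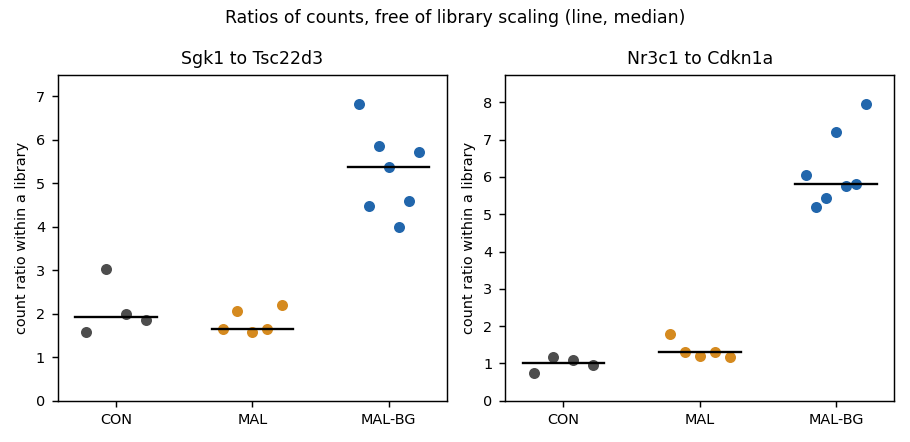
Ratios of raw counts within each library for Sgk1 to Tsc22d3 (left) and Nr3c1 to Cdkn1a (right), with the median of each group as a line. MAL-BG lies at 3.99 to 6.82 and 5.19 to 7.95, above every CON and MAL library (at most 3.04 and 1.8). The left pair was chosen after its values were seen, with no count of other pairs that separate so. Such a ratio to Nr3c1 was given by 24.0% of the 14026 tested genes with a count in every library.

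Cdkn1a encodes p21, the inhibitor of cyclin-dependent kinases, and showed the largest fall of the 10 against CON. It lies on chromosome 17 (29090979 to 29100722, plus strand, GRCm38), where its exons overlap an unconfirmed transcript on the opposite strand. Levels were 215, 136, 157, and 177 CPM in CON and 112, 118, 137, 155, and 141 CPM in MAL. The MAL-BG libraries held only 34.2 to 53.0 CPM, with a median of 41.2, so the highest of them was less than the lowest MAL library by a wide gap. The log2 fold change was -2.01 ± 0.13 against CON (interval -2.29 to -1.72, adjusted p = 1.85e-07) and -1.63 ± 0.13 against MAL (adjusted p = 3.24e-06). It was called in both comparisons under all alternatives, leaving out any library included. MAL was nominally lower than CON as well (-0.37, interval -0.68 to -0.06), which did not pass the adjustment (adjusted p = 0.999).

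Ddit4 encodes REDD1, which shuts down mTORC1 signalling, and lies on chromosome 10 (59949675 to 59951770, minus strand). Its level was 46.5, 45.1, 54.7, and 70.9 CPM in CON and 68.9, 55.1, 98.9, 38.8, and 45.9 CPM in MAL. MAL-BG ranged from 17.2 to 32.9 CPM with a median of 26.6, below every other library. The fall came to -1.03 ± 0.22 against CON (adjusted p = 0.00156) and -1.21 ± 0.21 against MAL (adjusted p = 0.000343). In MAL itself the gene was loose, with an SD of 38.6% of the mean, and its value against CON was 0.18 ± 0.24.

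Errfi1 encodes MIG6, which blocks the EGF receptor kinase. The CON libraries held 88.0, 84.4, 76.8, and 92.7 CPM and the MAL libraries 66.3, 62.4, 72.2, 92.5, and 78.8 CPM. All 7 MAL-BG libraries lay lower, at 43.4 to 59.7 CPM (median 49.3). The log2 fold change was -0.74 ± 0.11 against CON (adjusted p = 0.000131) and -0.54 ± 0.11 against MAL (adjusted p = 0.000859), which is under the fold threshold. Scaling by the mean log2 CPM brought the first to -0.49, also under that threshold. So the MAL-BG libraries stood below all 9 others for each of the 3 brakes on growth, and for Zbtb16, making 4 of the 10 genes in all where 6.36% of all tested genes did.

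Zbtb16 encodes PLZF, a transcription factor of the zinc finger family (chromosome 9, 48651797 to 48836225, minus strand), and was the least abundant of the 10. It stood at 2.76, 6.68, 7.96, and 9.69 CPM in CON and at 4.94, 7.16, 8.26, 3.71, and 5.57 CPM in MAL. The MAL-BG libraries held 0.810 to 2.5 CPM with a median of 1.86. The log2 fold change was -1.90 ± 0.33 against CON (adjusted p = 0.000337) and -1.71 ± 0.32 against MAL (adjusted p = 0.000551). Groups did not overlap, but CON replicate 1 was just above the highest MAL-BG library.

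Klf9, a zinc finger factor that the receptor induces in many tissues, fell against CON by the narrowest margin. The CON libraries held 19.4, 58.2, 50.4, and 73.9 CPM and the MAL libraries 31.2, 51.3, 60.1, 18.5, and 38.5 CPM. MAL-BG ran from 15.5 to 45.7 CPM with a median of 21.7, and CON replicate 1 and MAL replicates 1, 4, and 5 fell inside that range. The value against CON was -0.92 ± 0.35 (adjusted p = 0.0379), and leaving out CON replicate 2, 3, or 4, or MAL-BG replicate 1, 2, 5, 6, or 7, lost the call (adjusted p up to 0.158, without CON replicate 4, where it was -0.68). Against MAL it was -0.59 ± 0.33 (adjusted p = 0.153).

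Cebpd, a bZIP factor of acute inflammatory and hormone responses, passed the test in no comparison on the TMM scale, but was called lower by microglia markers (-1.07 against CON, adjusted p = 3.00e-05, and -1.22 against MAL, adjusted p = 6.64e-06). Its exons overlap those of Spidr on the other strand, and the strand setting used in counting is not given in the sources used here. It held 92 to 145 CPM in CON, 94.8 to 177 CPM in MAL, and 81.7 to 127 CPM in MAL-BG. The value was -0.04 ± 0.17 against CON (interval -0.40 to 0.31, adjusted p = 0.853), a sign that turned under several alternatives, and -0.28 ± 0.16 against MAL (adjusted p = 0.156). CON replicate 1 and MAL replicate 4 were again the highest of their groups.

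**Figure D3:**
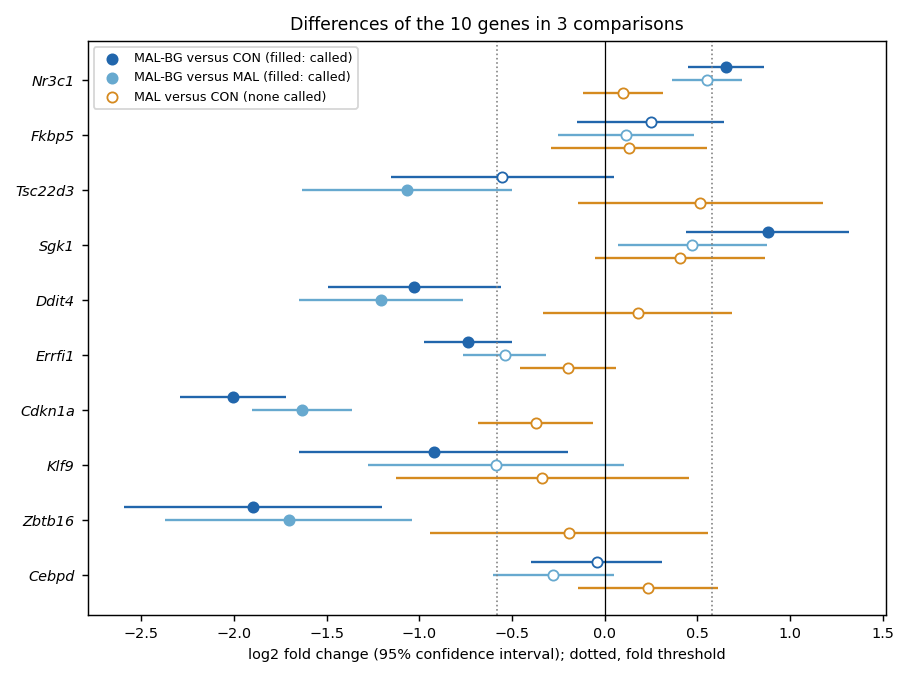
Log2 fold change of each gene on the TMM scale with its 95% confidence interval in the 3 comparisons, filled where called (adjusted p under 0.05 and beyond the dotted fold threshold of 0.58). Cdkn1a, Zbtb16, and Ddit4 are called lower in both MAL-BG comparisons and no gene is called in MAL versus CON; the signs of Nr3c1, Sgk1, and Fkbp5 in MAL-BG turn under scaling to microglia markers.

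Among the CON and MAL libraries, the choroid plexus signal varied along with Klf9 and Zbtb16, as did several other marker sums. CON replicate 1 and MAL replicates 1 and 4 had choroid plexus sums (10915, 9814, and 5095 CPM) within the range of the MAL-BG libraries. Zbtb16 (2.76, 4.94, and 3.71 CPM) and Klf9 (19.4, 31.2, and 18.5 CPM) were at their lowest among the 9 CON and MAL libraries in exactly these 3. The same 3 were also the lowest of the 9 in neuron (38.2, 88.9, and 65.3 CPM) and astrocyte sums (277, 448, and 340 CPM). So they were in ependyma sums (107, 85.4, and 41.0 CPM). They were the highest of the 9 in microglia (28790, 25310, and 31419 CPM) and early response sums (35959, 28439, and 42252 CPM). The pattern was thus not particular to choroid plexus markers. Within MAL-BG, replicate 3 had the most choroid plexus signal (13312 CPM) and the highest Klf9, but not the highest Zbtb16, which was at 1.86 CPM there and at 2.33 and 2.5 CPM in replicates 5 and 6, where choroid plexus sums were 2772 and 2769 CPM. The part of choroid plexus or any other cells in the differences of these and the other genes was not tested.

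Counts per kilobase of exon allow the levels of different genes to be compared. In CON the order of mean levels, in CPM per kilobase, was Sgk1 (112 ± 40.6, SD), Tsc22d3 (66.2 ± 39.2), Cdkn1a (48.2 ± 9.48), Ddit4 (30.9 ± 6.74), Cebpd (29.4 ± 6.32), Errfi1 (23.9 ± 1.87), Nr3c1 (21.5 ± 0.78), Klf9 (10.48 ± 4.76), Fkbp5 (7.07 ± 0.56), and Zbtb16 (1.28 ± 0.56). Ranges of neighbours over the CON libraries overlapped, except that Zbtb16 lay wholly below Fkbp5 and Klf9 wholly below Nr3c1. Within each single CON library, Sgk1 was also above Tsc22d3, Cdkn1a above Ddit4, and Cebpd above Errfi1. In MAL-BG the order differed. Sgk1 led at 206 ± 34.0, Nr3c1 (33.9 ± 2.17) came next after Tsc22d3 (45.2 ± 9.15), and Cdkn1a (12.02 ± 1.76) stood below Cebpd (28.6 ± 4.58), Ddit4 (15.2 ± 3.13), and Errfi1 (14.3 ± 1.55). A comparison of genes within 1 library does not depend on how libraries are scaled.

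Ratios of Nr3c1 to the induced genes within a library need no scaling either. Nr3c1 counts relative to Cdkn1a were 0.754 to 1.17 in CON, 1.17 to 1.8 in MAL, and 5.19 to 7.95 in MAL-BG. For 5 of the 9 induced genes (Ddit4, Errfi1, Cdkn1a, Zbtb16, and Cebpd) the ratio was higher in every MAL-BG library than in all others, and 24.0% of 14026 tested genes with a count in every library gave such a ratio to Nr3c1. To Fkbp5 the ratio overlapped, at 2.34 to 2.61 in CON, 1.97 to 2.95 in MAL, and 2.1 to 5.1 in MAL-BG, and to Sgk1 it was 0.193 to 0.433, 0.212 to 0.315, and 0.218 to 0.333.

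MAL versus CON asks what the diet did without bacteria, and 0 of the 10 genes were called, beside 0 of all 14565. By edgeR 212 genes had an unadjusted p under 0.05 and by DESeq2 241, and Cdkn1a was the only one of the 10 by edgeR. Both counts are below a share of 0.05 of all 14565, the share expected if no gene differed. The estimates leave room for sizeable differences in the variable genes. The interval of Tsc22d3 was -0.14 to 1.18 around 0.52, that of Sgk1 was -0.05 to 0.87 around 0.41, and that of Klf9 was -1.13 to 0.45 around -0.34. Nr3c1 was bounded more tightly, at -0.12 to 0.31 on the TMM scale.

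Other genes of the pathway were grouped by role. Of 27 further genes known to be induced by glucocorticoid, 2 rose and 11 fell against CON (11.4% and 21.7% of all genes) and 1 rose and 10 fell against MAL (10.2% and 20.2%), with medians of -0.44 in both, and by microglia markers 1 rose and 21 fell in each, where 76.6% and 72.5% of all genes fell. Gadd45b, a stress-induced growth arrest gene, fell most against CON (-2.90, with -2.22 against MAL). Per1, a clock gene that glucocorticoid induces directly, was at 301 to 531 CPM in CON, 210 to 364 CPM in MAL, and 37.1 to 101 CPM in MAL-BG. Its difference was -2.62 ± 0.22 from CON (adjusted p = 2.19e-06) and -2.27 from MAL. Mt2, a metallothionein, changed by -2.01, and Dusp1, the phosphatase that switches off MAP kinases, by -1.08 (adjusted p = 0.00215), with no overlap between MAL-BG and the rest. Higher against CON were Sesn1, a stress-induced restraint of mTORC1 named after its value was seen (0.78, adjusted p = 0.00242, and -0.23 by microglia markers), and Lcn2. Lcn2 is a granule protein of neutrophils that is also made by other stimulated cells, and it rose by 4.94 against CON and ranged from 9.98 to 704 CPM over the MAL-BG libraries, among which neutrophil markers ranged from 571 to 13326 CPM. Whether neutrophils carry that rise was not tested.

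In the group that readies the receptor, Hsp90aa1, the inducible Hsp90, was the only one of 10 chaperone genes called, and it was higher (0.99 against CON and 0.89 against MAL), while by microglia markers it was at -0.08 and -0.11 and 9 of the 10 were lower, beside the same 76.6% and 72.5%. Nrip1, a corepressor, was the only one of 12 coregulators called, and it was lower (-1.59 and -1.68), as it was by microglia markers, where 11 and 12 of the 12 were lower, again beside 76.6% and 72.5%. Scaling by the mean log2 CPM added 3 coregulators as higher against CON and 1 against MAL. Nr3c2, the mineralocorticoid receptor that binds the same hormone more tightly, held 4.45 to 14.6 CPM in CON, 5.96 to 9.56 CPM in MAL, and 1.07 to 5.53 CPM in MAL-BG, and was lower by the test (-1.64 ± 0.39 against CON, adjusted p = 0.00316, and -1.49 against MAL). Its direction was opposite to that of Nr3c1 on the TMM scale, while by microglia markers both were lower (Nr3c2 at -2.75 against CON). Hsd11b1, the enzyme that regenerates active hormone, held 1.61 to 16.4 CPM over all libraries. Its SD in MAL-BG was 94% of the mean, and it did not pass the test (0.68 ± 0.49 against CON, adjusted p = 0.275). Hsd11b2 did not pass the filter on low counts.

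Inflammatory genes that the receptor is known to hold back did not move as one. Of 11, 2 rose and 5 fell against CON and 3 rose and 2 fell against MAL (11.4% and 21.7%, and 10.2% and 20.2%, of all genes), with medians of -0.04 and 0.15. Il1a (-2.80 against CON and -1.93 against MAL) and Tnf (-2.14 and -1.60) were lower under each scaling. The chemokines Ccl5 (0.94 and 1.31) and Ccl3 (0.80 and 1.06) were higher, but not by microglia markers (-0.07 and 0.32 for Ccl5, -0.27 and 0.14 for Ccl3, none called). Of the 12 early response genes, 5 fell against CON, and 8 fell and 1 rose against MAL, beside the same shares. In MAL versus CON 0 genes of any of these lists were called.

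**Figure D4:**
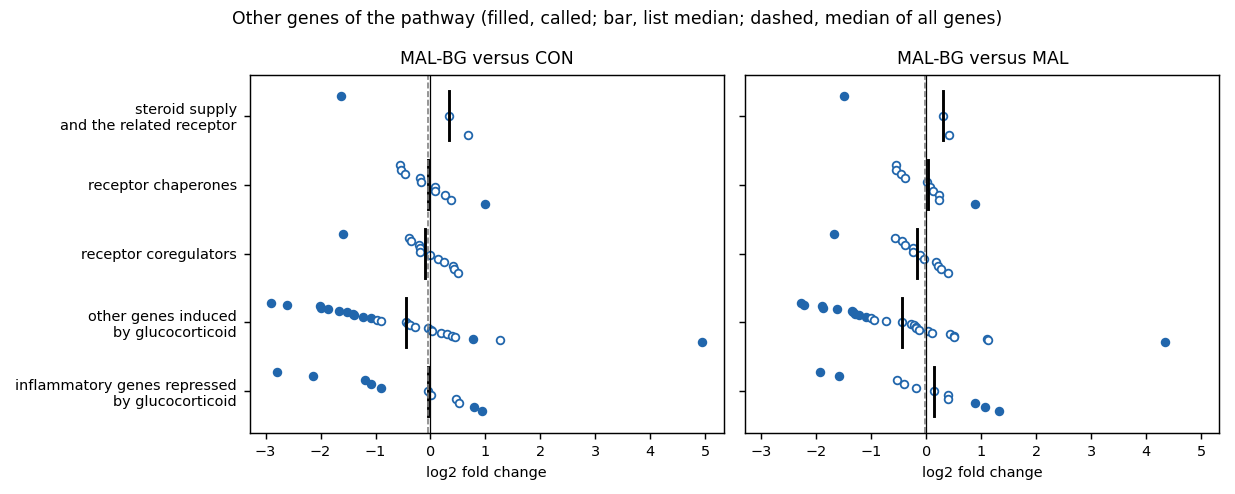
Log2 fold change on the TMM scale of the other pathway genes by role, in MAL-BG versus CON (left) and MAL-BG versus MAL (right), with filled points called, bars at each list's median, and a dashed line at the median of all genes. The induced genes sit mostly to the left with Lcn2 alone at 4.94 and 4.35, and only 1 chaperone and 1 coregulator are called, a pattern that changes by microglia markers, where most of both lists are lower.

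Genes that varied most like a member across the 16 libraries, after the mean of each group was taken away, were found by the correlation of log2 CPM, as a description over libraries that also differ in depth and cell content. They were Elavl4, Fam63b, and Elk3 for Nr3c1 (r = 0.875, 0.875, and 0.848), Sufu, Klf7, and Cd4 for Cdkn1a (0.827, 0.817, and 0.802), Apcdd1, Lats2, and Tmco3 for Ddit4 (0.867, 0.820, and 0.808), and Zdhhc3, Ubxn2a, and Clasp1 for Zbtb16 (0.831, 0.823, and 0.823). The 3 named for each member had the highest r of all genes tested, and how high r would reach by chance was not estimated. The closest genes of the other 6 members were not sought.

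**Figure D5:**
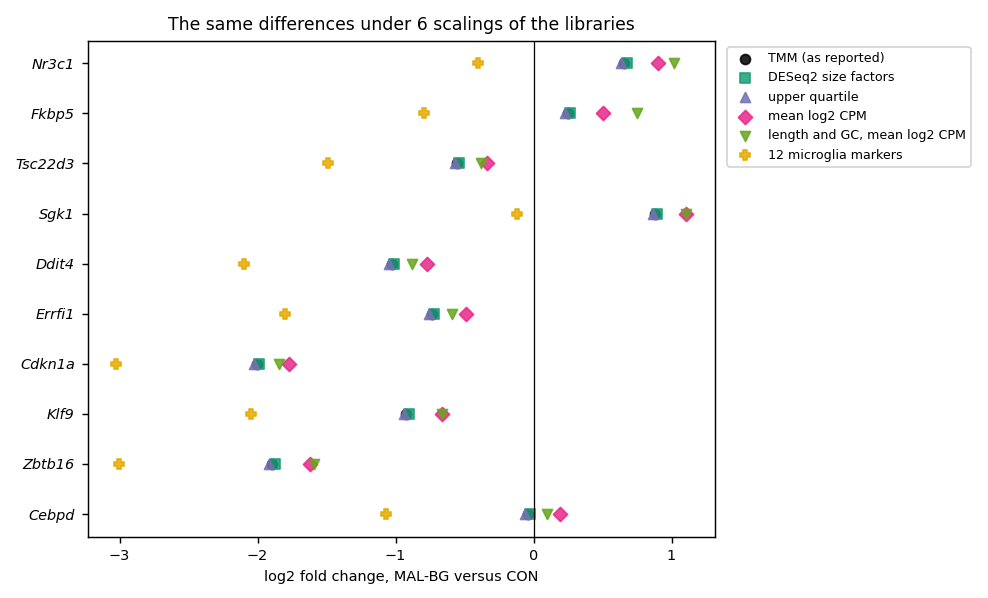
Log2 fold change of the 10 genes in MAL-BG versus CON under 6 ways of scaling the libraries. Scaling moves all 10 points by about the same amount, while the offsets for length and GC content also move single genes such as Fkbp5 (0.51 to 0.75). Cdkn1a, Zbtb16, Ddit4, Klf9, Errfi1, and Tsc22d3 are below 0 under each, and Nr3c1, Sgk1, and Fkbp5 lie above 0 under 5 and below it under scaling to the 12 microglia markers.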

How the data were processed

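Polyadenylated RNA of CD11b+ brain cells was sequenced from 16 libraries (7 MAL-BG, 5 MAL, and 4 CON). The authors made stranded libraries, aligned paired reads to GRCm38.p6 with STAR, counted reads per gene with HTSeq (version 2.5 in the submitters' processing notes, another in the methods), and deposited raw counts per gene. The counting mode, strand setting, and annotation are not given in the sources used here, nor is the batch of any library, so the batch term of the study's code was not fitted. Of 24421 rows, 27 had names that look like dates.

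Groups came from the column names, whose running numbers match no title. A gene was tested if 4 or more libraries held over 10 counts of it (14565 genes). Libraries were scaled by TMM, and 1 model over all 16 was tested by quasi-likelihood in edgeR 4.0.16 (R 4.3.3), with Benjamini-Hochberg adjustment over all genes per comparison. Calls needed both an adjusted p under 0.05 and a log2 fold change beyond 0.58 in either direction. CPM values are relative to TMM-scaled totals, and log2 CPM used a prior count of 2. Nothing in the labels says that libraries came from separate animals (the paper counts them as mice), so p-values measure the spread between libraries. The smallest chi-square per degree of freedom of a replicate pair was 9.80, and no library was merged or dropped. Steps were tested on simulated data.

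The 10 genes, the pathway and marker lists, and the tests were chosen with earlier results of these data known. Named besides the 10 were, per pathway list, up to 4 genes called in both MAL-BG comparisons with the largest change against CON, and Nr3c2, Per1, Dusp1, and Hsd11b1 whatever their values. The lists were steroid supply, chaperones, coregulators, induced genes, and repressed inflammatory genes. Exon lengths came from the GENCODE M21 annotation of GRCm38, and gene coordinates and promoters from RefSeq. Length and GC content were known for 14023 tested genes (96.3%). Alternatives were 5 other scalings or offsets, DESeq2 1.42.0 without a batch term, other filters, fits of the compared groups only, no fold threshold, thinned libraries, and each library left out in turn.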

Additional observations from a re-analysis of the deposited data

How the results depend on the processing

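Results are for MAL-BG versus CON unless said otherwise. Over 27 alternatives, Cdkn1a, Ddit4, and Zbtb16 stayed called lower in both MAL-BG comparisons, and the 10 genes gave 5 to 8 calls against CON and 0 for MAL versus CON. With single libraries left out, the count against MAL ran from 4 to 6 (2 higher and 4 lower without MAL replicate 4). With no fold threshold 1 rose and 5 fell. The count against MAL also rose from 4 to 6 when libraries were scaled by the mean log2 CPM, and to 7 with length and GC offsets added to that scaling. It rose to 8 with scaling to the summed counts of the 12 microglia markers, which was chosen after seeing the data. That marker scaling moved the median of all genes to -1.08 and gave 41 genes higher and 11155 lower (0 and 8 of the 10 genes), and it reversed Nr3c1 (-0.41, -0.40 against MAL, and -0.0102 for MAL versus CON), Fkbp5 (-0.79, and -0.86 against MAL), and Sgk1 (-0.12, and -0.48 against MAL). Scaling by the mean log2 CPM moved the median to 0.21, with 57.9% of all calls higher in place of 34.4%, and the offsets, which were fitted on top of that scaling, left this shift about the same (0.21). Cebpd reversed to 0.19 under that scaling, 0.10 with offsets, and between -0.12 and 0.12 when single libraries were left out (0.12 without CON replicate 1, 0.01 without MAL-BG replicate 3, 0.03 without replicate 4, and 0.00039 without replicate 7). With single libraries left out, Fkbp5 against MAL ran from -0.0232 (without MAL-BG replicate 6) to 0.22, and in MAL versus CON Zbtb16 ran from -0.45 to 0.0324 (without CON replicate 4) and Ddit4 from -0.0584 (without MAL replicate 3) to 0.33. Klf9 lost its call under the mean log2 CPM (-0.66, adjusted p = 0.0829) and with offsets (-0.66, adjusted p = 0.0925). Nr3c1 against MAL passed the fold threshold under DESeq2 (0.58), its size factors in edgeR (0.58), the mean log2 CPM (0.77), and offsets (0.93). With single libraries left out it ran from 0.51 to 0.60, so the threshold was also passed in some of those fits. The causes were not tested. No paired analysis was possible because the columns carry no replicate number that the labels give, so the replicate block was not run.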
